A study of Sus scrofa with 6 samples.

Results

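The genes described here build the calcium release and uptake machinery of the sarcoplasmic reticulum, the membrane store that wraps each myofibril of a skeletal muscle fibre. They were chosen by name, as records of the deposited gene table whose symbol is exactly ATP2A1, ATP2A2, CASQ1, CASQ2, RYR1, CACNA1S, TRDN, PVALB, JPH1 or SLN. Of these 10 symbols 8 had a record, out of 7661 records in all, and no symbol had more than 1. ATP2A2, the slow and cardiac calcium pump, and TRDN, triadin, had no record under those symbols. ATP2A2 is not analysed here, and triadin is covered by 2 records with other labels, described apart from the 8.

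RNA sequencing was done on longissimus dorsi, the long back muscle, of pigs (Sus scrofa). The low group was 3 libraries from pigs with low intramuscular fat, the fat within the muscle, and the high group was 3 libraries from pigs with high intramuscular fat. The labels name no treatment and give no breed, sex or age. The study's design gives n = 3 per group, and p-values measure the spread between these libraries.

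In a muscle fibre the voltage sensor of the transverse tubule pulls open the ryanodine receptor of the sarcoplasmic reticulum, and the calcium that escapes switches on the thin filament. Calcium pumps then return it to the store, where calsequestrin holds it, and relaxation follows. Fast and slow fibres use different forms of several of these proteins, so the levels in a whole muscle also depend on its mix of fibres.

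Library totals lay between 25371989 and 34813172 reads, and the 8 genes together took 1.80% ± 0.0426 of the reads in the low group and 1.84% ± 0.104 in the high group (SD, n = 3 per group). As a check of the tissue label, 6 of 9 skeletal muscle markers had records, none at 0 in any library, and ACTA1 had the most reads. Levels below are CPM, read counts scaled to 1e6 reads of a library, after TMM scaling, which equalises libraries on their shared genes. They serve to compare libraries and not genes, because transcript lengths were not available. Differences are log2 fold changes, high minus low, from edgeR's quasi-likelihood test, with p-values adjusted over all 7661 records by the Benjamini-Hochberg method and a threshold of 0.05.

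Setting high against low asks whether this machinery differs between muscles of unlike fat content. None of the 8 calcium handling genes differed past the threshold, and adjusted p-values ran from 0.382 to 0.973. Their median log2 fold change was 0.03, beside -0.04 over all records, and 7 of the 8 lay between -0.08 and 0.15. Of all records tested, 0.144% passed. At an unadjusted p under 0.05 the count was 0 of 8 in this test, 0 in DESeq2 and 1 (PVALB) in edgeR's exact test, where 18.7% of all records lay under 0.05 in the quasi-likelihood test. DESeq2 and the exact test each called 0 of the 8 after adjustment, against 6.76% and 4.12% of the table. In the authors' deposited table the false discovery rates of the 8 genes ran from 0.247 for PVALB to 0.981 for CASQ2. These equal the adjusted p-values of the exact test above to the digits printed, and are not separate evidence.

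**Figure D1:**
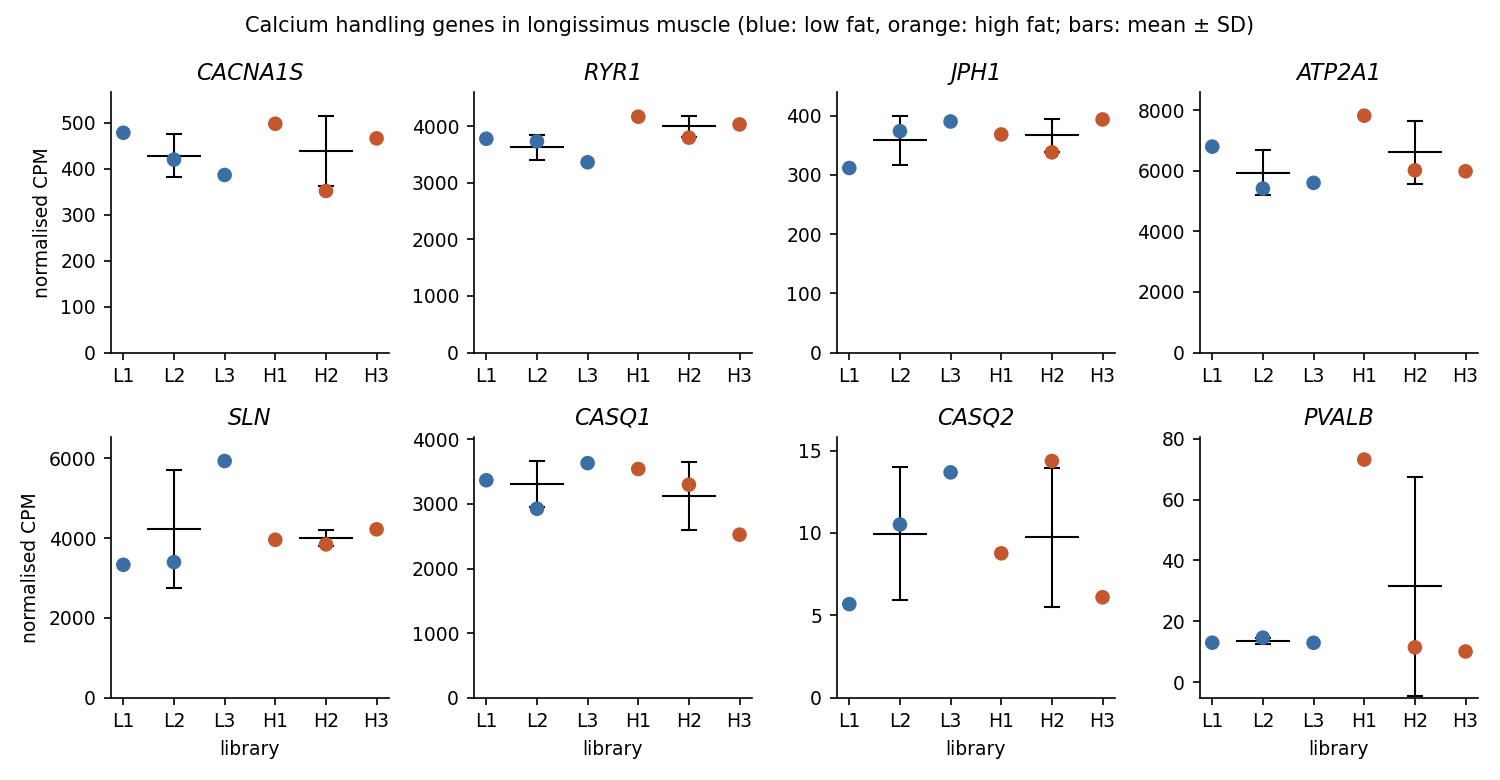
Normalised CPM (vertical axes, each panel with its own scale) of the 8 calcium handling genes in the low (L1 to L3, blue) and high (H1 to H3, orange) libraries, with mean ± SD of each group. Every panel but that of RYR1 has overlapping groups, and PVALB stands at 73.1 CPM in H1 against 10.04 to 14.6 CPM elsewhere.

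Calcium release begins with CACNA1S, the voltage-sensing subunit of the dihydropyridine receptor in the transverse tubule (ENSSSCG00000024784, chromosome 10, 27935052 to 27999300 in the deposited table, whose genome build the labels and headers do not state). It stood at 478, 419.99 and 387 CPM in low libraries 1 to 3 and at 498, 352 and 466 CPM in high libraries 1 to 3. The groups overlapped fully, with high library 2 the lowest of all 6 and high library 1 the highest. The log2 fold change was 0.03 (SE 0.17, quasi-likelihood adjusted p = 0.928), and its 95% interval covered folds from 0.774 to 1.36.

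RYR1 is the calcium release channel that CACNA1S opens, and it is the gene of malignant hyperthermia and porcine stress syndrome in pigs (ENSSSCG00000002961, chromosome 6, 42840240 to 42960106). Its levels were 3778, 3732 and 3363 CPM across the low libraries and 4167, 3798 and 4031.5 CPM across the high ones. All 3 high libraries lay above all 3 low ones, the nearest pair being 3798 and 3778 CPM. This was 1 of 8 genes, and 13.5% of all records were higher without overlap. The log2 fold change was 0.14 (SE 0.16, quasi-likelihood adjusted p = 0.652), with a fold interval of 0.849 to 1.43. Across the 6 libraries RYR1 varied least of the 8, with a coefficient of variation of 7.27%. RYR1 spans 119.9 kb, and long records tended to be higher in the high group across the table, with Spearman's rho of 0.407 between span and fold change over 7661 records, which are not independent. With that trend removed in each library RYR1 stood at -0.08 (adjusted p = 0.834).

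JPH1, junctophilin 1, is the tether that holds the transverse tubule against the sarcoplasmic reticulum (ENSSSCG00000006174, chromosome 4, 67243406 to 67423310). It measured 311, 374 and 389.9 CPM across the low libraries and 368, 338 and 393 CPM across the high ones, so that low library 1 was the lowest and the groups overlapped. The log2 fold change of 0.03 (SE 0.14, quasi-likelihood adjusted p = 0.919) had the smallest SE of the 8, and its interval covered folds from 0.811 to 1.29. With the span trend removed it was -0.24 (adjusted p = 0.489).

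Triadin binds the ryanodine receptor and calsequestrin inside the junction. The record listed as TRIADIN (ENSSSCG00000004231, chromosome 1, 43787655 to 43792674) had a log2 fold change of 0.19 (SE 0.14, quasi-likelihood adjusted p = 0.487). A nearby record with no deposited symbol, named TRDN by the Ensembl name table (ENSSSCG00000027613, chromosome 1, 43484628 to 43531456), had 0.14 (SE 0.14, adjusted p = 0.612). Both records had overlapping groups. At 95.5 ± 11.8 against 109 ± 9.43 CPM for TRIADIN and 229.7 ± 28.9 against 253 ± 20.9 CPM for TRDN (SD, n = 3 per group), neither differed beyond the spread of its libraries.

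ATP2A1 encodes SERCA1, the calcium pump of fast fibres, whose loss in humans and cattle slows relaxation (ENSSSCG00000007805, chromosome 3, 18733279 to 18753571). The low libraries held 6802, 5416.5 and 5606 CPM and the high libraries 7825, 6019 and 5988 CPM. High library 1 was the highest and low library 1 the next, and the other 4 lay close together. ATP2A1 had a log2 fold change of 0.15 (SE 0.21, quasi-likelihood adjusted p = 0.703), and the interval covered folds from 0.798 to 1.55. The fast fibre genes of MYH1, MYH4, TNNC2, MYLPF, MYBPC2 and TPM1, summed, were also highest in high library 1, at 87422 CPM against 67709 to 81539 CPM in the other 5. Their part in the level of ATP2A1 was not tested.

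The 5 named records whose log2 CPM followed ATP2A1 most closely over the 6 libraries were UBXN4 (Pearson's r of 0.98), PGK1, DECR1, PPP3CB and LANCL1 (all 0.96 or 0.97). PGK1 is a glycolytic kinase and PPP3CB a catalytic subunit of calcineurin. These are the top of a ranking over the whole table with 6 points each that share library composition, and are given as a description.

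SLN encodes sarcolipin, a short membrane peptide that binds SERCA and lowers the calcium moved per ATP (ENSSSCG00000029651, chromosome 9, 40309461 to 40314414). It stood at 3330.5, 3398 and 5929.7 CPM across the low libraries and 3957, 3842.5 and 4219.5 CPM across the high ones. Low library 3 was well above all others, while the other low libraries were the lowest of the 6. SLN had a log2 fold change of -0.07 (SE 0.26, quasi-likelihood adjusted p = 0.893), with folds from 0.626 to 1.44 in its interval. Without low library 3 it was 0.26 (adjusted p = 0.414), so that 1 library set the sign.

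The count of SLN reads per ATP2A1 read needs no scaling between libraries, and it was examined after the levels had been seen. It was 0.4897, 0.627 and 1.06 in the low libraries and 0.506, 0.638 and 0.705 in the high libraries. The log2 ratio differed by -0.17 between the groups (exact permutation test, two-sided, p = 0.9, n = 3 per group, where the smallest possible p is 0.1). Without low library 3 the difference was 0.14. PLN, phospholamban, the related SERCA inhibitor of slow and cardiac muscle, had 107 ± 47.5 CPM in the low and 131 ± 3.60 CPM in the high group (SD, n = 3 per group), with a log2 fold change of 0.30 (SE 0.30, quasi-likelihood adjusted p = 0.602).

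**Figure D2:**
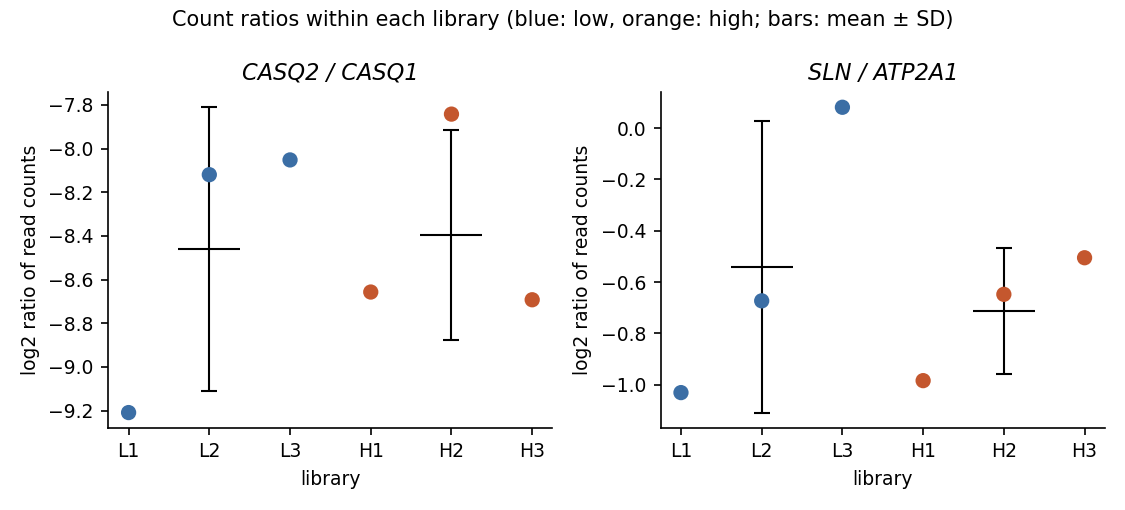
Log2 ratio of read counts within each library (vertical axes) for CASQ2 over CASQ1 and SLN over ATP2A1 in low (blue) and high (orange) libraries, with mean ± SD of each group. Both ratios overlap between groups, and low library 3 lies highest for SLN over ATP2A1 at 0.08.

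CASQ1, calsequestrin 1, is the main calcium binding protein in the store of fast fibres (ENSSSCG00000006390, chromosome 4, 98218159 to 98228804). It measured 3365, 2925 and 3629 CPM across the low libraries and 3539, 3296 and 2524 CPM across the high ones. High library 3 was the lowest of the 6, and the other 5 libraries overlapped. Between the groups CASQ1 differed by -0.08 on the log2 scale (SE 0.196, quasi-likelihood adjusted p = 0.837), with folds from 0.688 to 1.29 in its interval. It was 0.05 without high library 3 and 8e-04 with the span trend removed.

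CASQ2, the calsequestrin of cardiac and slow skeletal fibres, was counted at 175 to 387 reads per library (ENSSSCG00000006745, chromosome 4, 115007632 to 115070760). Its levels were 5.68, 10.5 and 13.7 CPM across the low libraries and 8.77, 14.4 and 6.10 CPM across the high ones. The spread within each group, a coefficient of variation of 40.4% in the low and 43.3% in the high group, far exceeded the difference of the means. For CASQ2 the log2 fold change was -0.03 (SE 0.39, quasi-likelihood adjusted p = 0.973), and folds from 0.5195 to 1.85 lay within the interval. The sum of the 9 slow fibre records was lowest in low library 1, at 8538 CPM, where CASQ2 was lowest too. It was 18835 and 17102 CPM in low libraries 2 and 3 and 11220, 11874 and 14453 CPM in high libraries 1 to 3, and apart from that lowest library CASQ2 followed this order in neither group.

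The log2 ratio of CASQ2 to CASQ1 reads within a library was -8.46 ± 0.65 in the low and -8.40 ± 0.48 in the high group (SD, n = 3 per group). The difference of 0.06 gave p = 1 in a two-sided exact permutation test, which cannot go below 0.1 here. Leaving out 1 library at a time moved it between -0.31 (without low library 1) and 0.27 (without low library 3). The same ratio for the calcium pumps could not be formed without ATP2A2.

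PVALB encodes parvalbumin, a soluble calcium buffer of fast fibres that is abundant in the fast muscles of rodents (ENSSSCG00000000138, chromosome 5, 8555819 to 8573107). The low libraries held 12.9, 14.6 and 12.9 CPM, and the high libraries 73.1, 11.4 and 10.04 CPM. High library 1, with 1777 reads, was 5.01-fold above the next highest library, and the other high libraries were the lowest of the 6. The log2 fold change of 1.22 (SE 0.71, quasi-likelihood adjusted p = 0.382) was the largest of the 8 and rested on that library, since without it the value was -0.32 (adjusted p = 0.435). High library 1 was also the library with the highest sum of fast fibre genes, by far less, and the part of fibre mix in this value was not tested.

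The 8 genes did not vary together as a block. Their coefficients of variation over the 6 libraries were 7.27% for RYR1, 8.797% for JPH1, 12.97% for CASQ1, 13.2% for CACNA1S, 14.3% for ATP2A1, 23.2% for SLN, 37.5% for CASQ2 and 110.5% for PVALB, beside a median of 16.3% over all records. Over the 28 pairs of genes, Pearson's r of log2 CPM ran from -0.85 for CASQ2 with CACNA1S to 0.78 for ATP2A1 with PVALB. ATP2A1, RYR1 and CACNA1S had r between 0.63 and 0.67 with each other. These are descriptions over 6 libraries that share their scaling, and the pair of ATP2A1 and PVALB leans on high library 1.

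The wider calcium pathway was taken from 3 lists of 55 genes, of which 44 were matched, by 49 records. The 0.144% of all records that passed compare with 0 of these 49, whose median log2 fold change was 0.05 beside -0.04 over all records. At an unadjusted p under 0.05 there were 8 (7 higher, 1 lower in the high group), beside 18.7% of the table. DESeq2 called 5 of the 49 (4 higher, 1 lower) beside 6.76% of all records, and the exact test 2 beside 4.12%, the latter share no higher than that of all records. The quasi-likelihood test with mitochondrial genes removed called 1 beside 0.21%. Groups did not overlap for 9 higher and 4 lower of the 49, where 13.5% and 13.3% of all records were higher and lower without overlap.

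**Figure D3:**
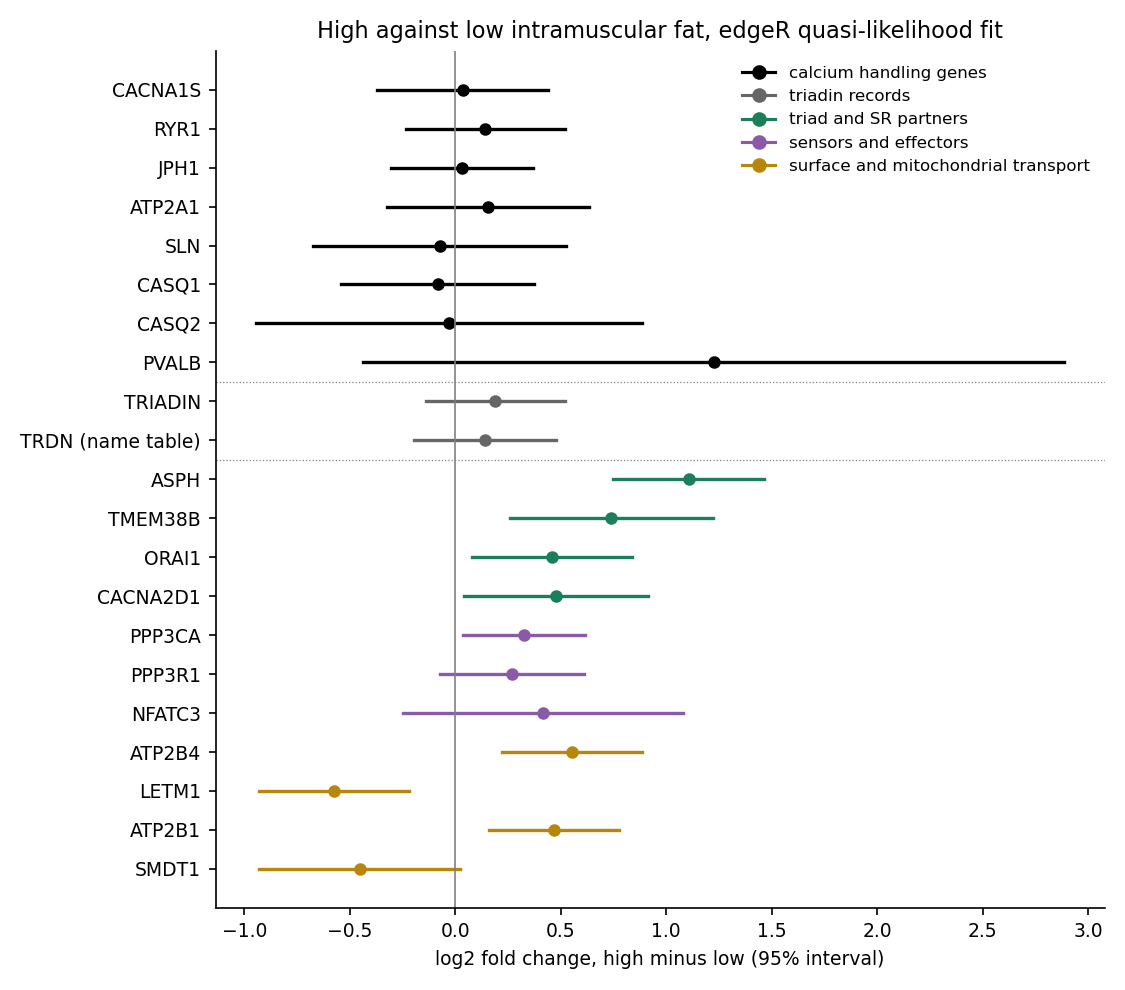
Log2 fold change, high minus low (horizontal axis), with its 95% interval for the 8 calcium handling genes (black), the 2 triadin records (grey) and records of the wider calcium lists named in the text (colours). All 8 black intervals cross 0, and ASPH lies highest of the wider records at 1.11.

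Among 21 records of triad and store proteins, 12 were above and 9 below 0 (median 0.05). ASPH, the locus that encodes junctin, junctate and aspartyl hydroxylase, has 2 records. The weaker one, ENSSSCG00000025087 (chromosome 4, 78382682 to 78507425), measured 20.3, 18.6 and 22.5 CPM across the low libraries and 40.2, 40.1 and 52.04 CPM across the high ones. Its groups were well apart, at a log2 fold change of 1.11 (SE 0.15), yet it did not pass (quasi-likelihood adjusted p = 0.0587). It passed in DESeq2 (adjusted p = 4.8e-07), in edgeR's exact test (adjusted p = 0.000127) and with mitochondrial genes removed (adjusted p = 0.0495). In the quasi-likelihood test it did not pass with the span trend removed (0.87, adjusted p = 0.107) or with the replicate number as a block (adjusted p = 0.121). Nor did it pass with any library left out, where the smallest adjusted p was 0.0595. The stronger ASPH record, ENSSSCG00000006229, had 229 ± 29.96 against 223 ± 11.5 CPM, a log2 difference of -0.04 (SE 0.14, adjusted p = 0.904). Which transcripts of the locus each record covers was not given, and the 2 can share reads.

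TMEM38B, a potassium channel of the store membrane (TRIC-B), had 27.8, 26.7 and 26.9 CPM in low libraries 1 to 3 and 59.6, 42.9 and 33.4 CPM in high libraries 1 to 3 (0.74, SE 0.21, quasi-likelihood adjusted p = 0.151). Its muscle counterpart TMEM38A (TRIC-A) stood at 319 ± 13.5 against 347 ± 15.02 CPM (0.12, SE 0.12, adjusted p = 0.611). ORAI1, the store-operated calcium channel of the plasma membrane, had 0.46 (SE 0.16, adjusted p = 0.209), and CACNA2D1, the α2δ subunit that accompanies CACNA1S, 0.48 (SE 0.19, adjusted p = 0.237). All 3 high libraries were above all 3 low ones for each of these 4 genes, as for 13.5% of all records. With the span trend removed CACNA2D1 went from 0.48 to 0.13 (adjusted p = 0.735) and ORAI1 from 0.46 to 0.29 (adjusted p = 0.412). TMEM38B went from 0.74 to 0.61 (adjusted p = 0.234). The other subunits of the voltage sensor, CACNB1 and CACNG1, stood at 0.16 (SE 0.22, adjusted p = 0.715) and at -0.32 (SE 0.14, adjusted p = 0.292). STAC3, the adaptor that voltage-gated release requires, had 0.01 (SE 0.19, adjusted p = 0.99), and JPH2, the second junctophilin, -0.15 (SE 0.15, adjusted p = 0.606).

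ASPH, TMEM38B, ORAI1 and CACNA2D1 are also transcribed outside muscle fibres, and the summed markers of fibroblasts, adipocytes and smooth muscle were higher in the high group too, though not every marker was. The 10 fibroblast marker records summed to 1382 to 2851 CPM in low libraries 1 to 3 and 3212 to 4259 CPM in high libraries 1 to 3, with COL3A1 the strongest and all 10 above 0 on the log2 scale. The 8 adipocyte records summed to 799 to 943 CPM in low libraries 1 to 3 and 947 to 1225 CPM in high libraries 1 to 3 (GPD1 strongest), and the 8 smooth muscle records to 462 to 587 and 618 to 684 CPM (ACTA2 strongest). Much of the adipocyte sum was GPD1, at 501 to 620 CPM in the low and 553 to 656 CPM in the high libraries. The groups of GPD1 overlapped (0.13, SE 0.15, quasi-likelihood adjusted p = 0.654), and the sum without it was not compared. Of the adipocyte records 6 were above and 2 below 0, AQP7 (-0.66, SE 0.24, adjusted p = 0.22) and CFD (-0.24, SE 0.22, adjusted p = 0.561), with AQP7 lower without overlap. PLIN1 passed the threshold (2.75, SE 0.32, adjusted p = 0.0404), as 0.144% of all records did. PLIN1, CIDEC (2.38, SE 0.55, adjusted p = 0.114) and CIDEA (1.17, SE 0.26, adjusted p = 0.112) were higher without overlap, where 13.5% of all records were. The smooth muscle records were split, 4 above and 4 below 0 (median 0.02). Endothelial sums (PECAM1 strongest) overlapped, at 305 to 450 and 379 to 454 CPM. No record of these lists was at 0 in any library. Their part in the wider calcium values was not tested, and in bulk muscle more cells of a type and more RNA per cell cannot be told apart.

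Among 14 records of calcium sensors and effectors, 9 were above and 5 below 0 (median 0.12). PPP3CA, a catalytic subunit of the calcium-activated phosphatase calcineurin, had 38.2 ± 3.50 against 47.8 ± 2.397 CPM (0.32, SE 0.12, quasi-likelihood adjusted p = 0.229) with groups that did not overlap. It was the only record of the 14 that was higher without overlap, where 13.5% of all records were, and none was lower. With the span trend removed PPP3CA stood at 0.0012 (adjusted p = 0.997). The regulatory subunit PPP3R1 had 0.27 (SE 0.15, adjusted p = 0.351), and NFATC3, a transcription factor that calcineurin activates, 0.41 (SE 0.28, adjusted p = 0.452). NFATC3 ranged from 0.17 without low library 3 to 0.78 without low library 1. None of these differed past the threshold.

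Among 14 records of calcium transport at the surface membrane and in mitochondria, 6 were above and 8 below 0 (median -0.09). The plasma membrane pumps were on the higher side: ATP2B4, named by the Ensembl table, had 69.8, 74.6 and 59.4 CPM in low libraries 1 to 3 and 90.5, 110.6 and 97.6 CPM in high libraries 1 to 3 (0.55, SE 0.14, quasi-likelihood adjusted p = 0.138). The ATP2B1 record ENSSSCG00000027898 had 0.47 (SE 0.13, adjusted p = 0.154), while its second record ENSSSCG00000000921 had 0.15 (SE 0.12, adjusted p = 0.512). On the lower side LETM1, a cation exchanger of the inner mitochondrial membrane, had 33.5, 40.5 and 43.7 CPM in low libraries 1 to 3 and 26.6, 29.2 and 23.1 CPM in high libraries 1 to 3 (-0.58, SE 0.15, adjusted p = 0.138), the groups not overlapping, where 13.3% of all records were lower without overlap. SMDT1, a subunit of the mitochondrial uniporter, had -0.45 (SE 0.205, adjusted p = 0.289), and MCU, the uniporter pore, -0.19 (SE 0.15, adjusted p = 0.512). With the span trend removed ATP2B4 stood at 0.31 (adjusted p = 0.278) and the first ATP2B1 record at 0.25 (adjusted p = 0.329). None passed in the quasi-likelihood test. ATP2B4, ATP2B1, LETM1 and TMEM38B passed in DESeq2 (adjusted p = 0.0192, 0.039, 0.0332 and 0.029). Of these, TMEM38B also passed in edgeR's exact test (adjusted p = 0.0484), and the others did not.

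**Figure D4:**
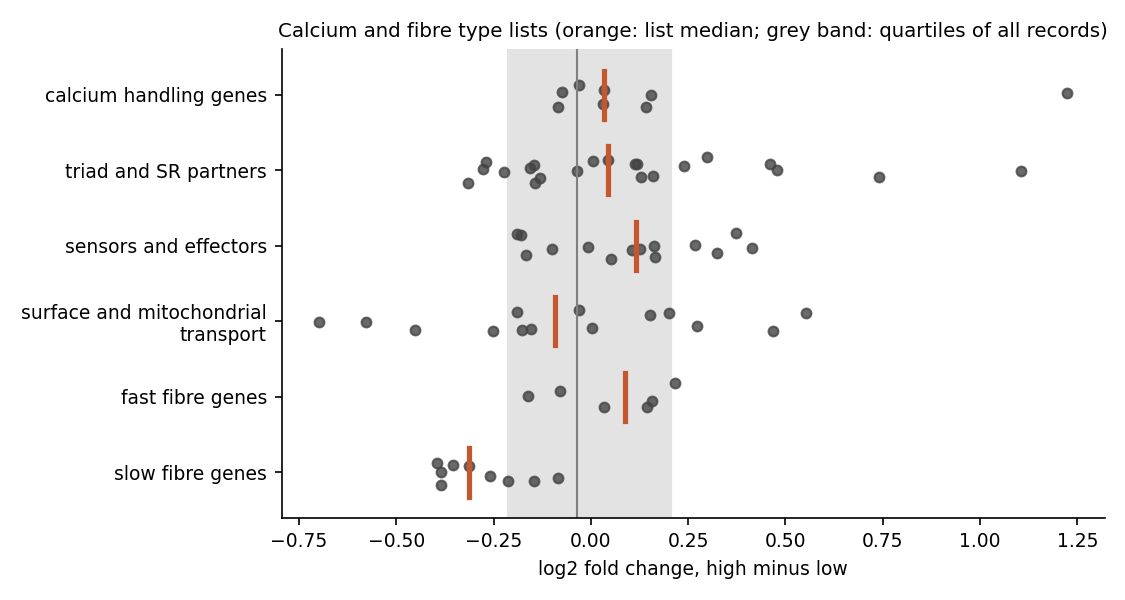
Log2 fold change, high minus low (horizontal axis), of every record in the calcium and fibre type lists (points), with list medians (orange) and the range between the quartiles of all 7661 records (grey band, -0.21 to 0.21). 7 of the 8 calcium handling genes lie in the band, and the 9 slow fibre records lie to the left of 0.

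Several of the calcium handling genes depend on fibre type, so fast and slow contractile genes were set beside them. The 9 slow fibre records all had negative values (median -0.31), where 4198 of all 7661 records did. They are not independent: their sum was lowest in low library 1 and highest in low libraries 2 and 3. Of the 9, 0 passed, with adjusted p-values from 0.456 to 0.846 in the quasi-likelihood test. At an unadjusted p under 0.05 there were 0 in that test and in DESeq2. Without low library 1, 5 of the 15 fast and slow records had an unadjusted quasi-likelihood p under 0.05, beside 1728 of all records. Leaving out high library 3 gave 1, beside 1074, and leaving out any other library gave 0. TNNT1, the slow troponin T, had 1219 ± 416 CPM in the low and 933 ± 88.6 CPM in the high group (SD, n = 3 per group; -0.39, SE 0.27, adjusted p = 0.456). TNNI1 (listed as TNI-S4), TNNC1 and TPM3 had -0.396 (SE 0.31), -0.39 (SE 0.32) and -0.31 (SE 0.28). Low library 1 was the lowest of the 6 for TNNT1, TNNI1 and TNNC1, and without it these had -0.63, -0.67 and -0.65 (adjusted p = 0.109, 0.132 and 0.177). Without low library 2 they had -0.19, -0.18 and -0.24, and without low library 3 -0.27, -0.26 and -0.198 (adjusted p from 0.669 to 0.802). The 6 fast records had a median of 0.09 and 0 passed. MYH4 and MYH1, fast myosin heavy chains that can share reads, stood at 0.22 (SE 0.21, adjusted p = 0.598) and at 0.16 (SE 0.22, adjusted p = 0.717). TPM1 had 0.14 (SE 0.25) and TNNC2, the fast troponin C, -0.16 (SE 0.22).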

How the data were processed

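RNA was extracted with TRIzol from fresh longissimus dorsi and made into TruSeq libraries, per the labels' protocols. FastQC 0.10.1, Trimmomatic 0.22, TopHat2 2.0.4 and BWA 0.6.2 are named in the submitters' processing notes. Neither these notes nor the labels name the annotation, the genome build or how reads were counted and on which strand, so reads of overlapping or antisense genes cannot be told apart, and close paralogs such as CASQ1 and CASQ2 can share reads.

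The authors deposited whole-number read counts per Ensembl gene. The deposited CPM equal these counts divided by 1 library total each, and those totals (25371989 to 34813172 reads) served as library sizes. Each record exceeded 10 CPM in 3 or more libraries; rarer transcripts are not analysed here, and 3 counts correspond to 0.0862 to 0.118 CPM. The authors' deposited log2 fold changes run low over high, with p-values and false discovery rates per the file headers, and their test is not named.

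Counts were fitted with edgeR 4.0.16 (R 4.3.3), TMM, filterByExpr, which kept all 7661 records, and the quasi-likelihood F-test (the method with adjusted deviances) without covariates. SEs were taken as the size of the fold change (log2) divided by the square root of F, and 95% intervals use that test's degrees of freedom. DESeq2 1.42.0, edgeR's exact test, limma-voom (limma 3.58.1), other factors and filters, removal of mitochondrial genes or of each library's trend with genomic span, the replicate number as a block and each library left out were alternatives. The procedure was tested on simulated counts. List genes were matched by deposited symbol, then Ensembl name, then RefSeq name (Sscrofa11.1, names alone). The genes and lists were chosen with earlier results of these data known. Named from the lists were records past the threshold and up to 4 further per list by unadjusted p, and for ATP2A1 the 5 records most correlated with it. A record that this rule names is not reported here. Of the marker lists, those of macrophages (2 records) and erythrocytes (2 records) were too short to describe, and their sums overlapped between the groups.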

Additional observations from a re-analysis of the deposited data

How the results depend on the processing

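Under 17 alternatives for each of the 8 calcium handling genes, 0 passed the threshold, and the smallest adjusted p was 0.247 (PVALB in edgeR's exact test). Of 88 values from alternatives that kept all libraries, 5 had the opposite sign, all with the span trend removed: CASQ1 8e-04, RYR1 -0.082, CACNA1S -0.12, JPH1 -0.24 and SLN 0.067. PVALB, at 1.22 in the main fit, was 0.56 in limma-voom and 0.55 with the replicate number as a block. For PVALB the other alternatives that kept all libraries gave 1.20 to 1.26. Leaving out 1 library at a time gave -0.17 to 0.048 for CASQ1, -0.42 to 0.27 for CASQ2, -0.0565 to 0.17 for CACNA1S, -0.32 to 1.65 for PVALB, -0.045 to 0.10 for JPH1, -0.21 to 0.26 for SLN, 0.03 to 0.28 for ATP2A1 and 0.10 to 0.19 for RYR1. It gave -0.30 to 0.0082 for TNNC2 and -0.002 to 0.30 for TPM1, -0.31 to 0.27 for the CASQ2 over CASQ1 ratio and -0.42 to 0.14 for that of SLN over ATP2A1, which was chosen after seeing the data. Pseudocounts of 0.5 or 2 kept the sign of both ratios.

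Of the 49 wider calcium records DESeq2 called 5, the exact test 2 and the fit without mitochondrial genes 1; 0 of the 15 fibre type records passed under any alternative. Over all records the count of 11 became 518 in DESeq2, 316 in the exact test, 82 at a threshold of 0.1 and 1 to 30 with a library left out (1 without low library 2, 30 without low library 1). With the replicate number as a block it was 2, with 0 of the 8 genes and 0 of the wider records, and the block left the CASQ2 over CASQ1 difference at 0.06 (exact sign-flip test, p = 1) and that of SLN over ATP2A1 at -0.17. Same-numbered libraries correlated at 0.12, 0.03 and -0.08 in their deviations from the group means, beside -0.185 to 0.14 for the other pairs. The labels state no pairing, and with 3 libraries per group these values cannot tell whether there was one. The cause of these shifts was not tested. The planned ratio of ATP2A2 to ATP2A1 was not run for want of an ATP2A2 record. CASQ2 and PVALB, at 175 to 1777 reads, have the widest intervals of the 8.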

Other observations

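The level of PVALB in high library 1 stands apart from the table as well as from the other 5 libraries. In a search made after the value was seen, 7 of 7661 records (0.0914%) had 1 library at least 3-fold above the next highest. Of these, 5 had low library 3 as the high one, 1 had low library 2 and 1 had high library 1, and that 1 was PVALB.

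RCAN1, an inhibitor of calcineurin whose transcription calcineurin itself raises, ranged widely and was picked out here after its values were seen. It stood at 328, 384 and 696 CPM across the low libraries and 835, 519 and 468 CPM across the high ones, with a log2 fold change of 0.37 (SE 0.33, edgeR quasi-likelihood adjusted p = 0.561). SLC8B1, the mitochondrial sodium-calcium exchanger (listed as SLC24A6), ranged from 4.16 CPM in high library 1 to 50.7 CPM in low library 2 (-0.699, SE 0.81, adjusted p = 0.655). SRL, sarcalumenin, a calcium binding protein of the store that is listed as CBPG, was lower in the high group without overlap, at 333 ± 25.9 against 275 ± 10.8 CPM (SD, n = 3 per group; -0.28, SE 0.13, adjusted p = 0.29), where 13.3% of all records were lower without overlap.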
